A study of Danio rerio with 10 samples.

Results

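Transcripts of the mitochondrial respiratory chain and of ATP synthase were followed in sorted zebrafish microglia, with the genes of the nuclear genome and those of the mitochondrial genome kept apart. Members were taken from the expression table by symbol: names that begin with nduf followed by a, b, c, s or v, with uqcr, with cox4 to cox8, with atp5 or with sdha to sdhd, the gene cyc1, and the mt-nd, mt-co, mt-cyb and mt-atp genes. This gave 121 of 21756 genes, of which 13 carry the mt- prefix and 108 are nuclear. The rule uses names alone, and it was set with earlier results of these data known. The 13 mt- genes are 7 subunits of complex I, 1 of complex III, 3 of complex IV and 2 of complex V. The nuclear members are 46 genes of complex I, 9 of complex II, 9 of complex III, 25 of complex IV and 19 of complex V. Of these nuclear genes, 13 are assembly factors or related genes caught by the same prefixes (the ndufaf and sdhaf genes, NDUFAF3, ATP5SL, which the later annotation names dmac2, and atp5s), and they are counted apart where it matters. The ndufa4 genes are placed in complex IV, where the mammalian NDUFA4 protein is found. All 121 passed the filter on low values, which asked for 1 unit or more in 2 or more libraries. Gene positions are not given, because the reference at hand describes another genome build than GRCz10, which the submitters' processing notes name.

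Fish were 3 months old, and every group carried the same pair of transgenes, labelled Neuro:NTR-mCherry and mpeg1:GFP. Nitroreductase (NTR) converts metronidazole (MTZ) into a toxic product, so MTZ kills the cells that carry it, here neurons, and mpeg1 is a promoter of macrophages, which include microglia. Control microglia are GFP-positive cells of fish given the solvent DMSO, and activated microglia are GFP-positive cells after 24 h or 48 h of MTZ. Other brain cells are the GFP-negative fraction, from fish whose treatment is not labelled. Whether each library stands for its own animals is not labelled either, and p-values here cover the spread between libraries, which may be technical. A transgene driven in neurons and a sort on GFP define these groups, so any other GFP-positive macrophage of the brain would be sorted with the microglia.

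The respiratory chain passes electrons from NADH (complex I) and succinate (complex II) through complex III to oxygen at complex IV, and the proton gradient built on the way drives ATP synthase, also called complex V. Complex II is encoded in the nucleus alone, and the other 4 are built from subunits of both genomes. The mitochondrial genome is transcribed inside the organelle as long precursors from each strand that are cut into messenger RNAs, and the nuclear subunits are made in the cytosol and imported. In mammalian macrophages and microglia the balance between glycolysis and oxidative phosphorylation is known to shift with inflammatory activation.

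The 9 libraries used held 6185540 to 12815571 reads, recovered from the steps of the deposited values, and 1 read was worth 0.072 to 0.1545 units of the authors' normalized signal. The values listed for sample 9, a control by its label, equalled those of 24 h sample 3 in all 21756 genes. Controls were therefore samples 1 and 5 (n = 2), beside 24 h samples 3 and 7, 48 h samples 4 and 8 and other brain cells 2, 6 and 10. All 7 microglia markers were higher in control microglia than in other brain cells, and their summed signal was 23490 to 108800 in microglia against 151 to 672 in other brain cells. Neuron markers summed to 137.5 and 148.4 in the controls and 58.4 to 102.6 in activated microglia, against 1812 to 3377 in other brain cells. Library 48 h sample 8 stood apart from its partner. Measured on log2(signal + 1), 75 of the 108 nuclear members (69.4%) were more than 2-fold higher in sample 8 than in 48 h sample 4. On the same scale 2 were more than 2-fold lower, against 14.3% higher and 13.6% lower of all genes tested. The median distance between the 2 libraries of a group over the nuclear members was 0.15 on the log2 scale at 24 h, 0.27 in the controls and 1.47 at 48 h. Calls and medians for activated against control microglia are therefore given with and without it.

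The share of reads from the 2 genomes differed between control and activated microglia in opposite directions. The 13 mt- genes took 8.994% and 6.692% of reads in control samples 1 and 5, 4.371% and 2.867% in 24 h samples 3 and 7, and 5.577% and 1.703% in 48 h samples 4 and 8. All 4 activated libraries lay below both controls. For other brain cells the share was 5.19%, 11.017% and 5.309%, a range that overlaps both microglia states. The 108 nuclear members took 0.542% and 0.605% of reads in the controls. After 24 h their share was 0.992% and 0.97%, after 48 h 0.718% and 1.505%, and for other brain cells it was 0.923%, 0.945% and 0.7%. Here all 4 activated libraries lay above both controls. The median nuclear member, on the log2 scale from the control mean, was 0.43 and 0.37 at 24 h and 1.56 in 48 h sample 8. In 48 h sample 4 it was -0.09, below both controls (-0.04 and 0.04), so the higher share there did not hold for the typical member. For every 100 reads of mt- genes there were 6.03 and 9.04 reads of nuclear members in the controls, 22.69 and 33.83 at 24 h, and 12.87 and 88.42 at 48 h. The GFP-negative cells had 17.79, 8.58 and 13.19. These sums are descriptions of libraries and were not tested, and in bulk samples fewer cells of a type and less RNA per cell cannot be told apart.

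**Figure D1:**
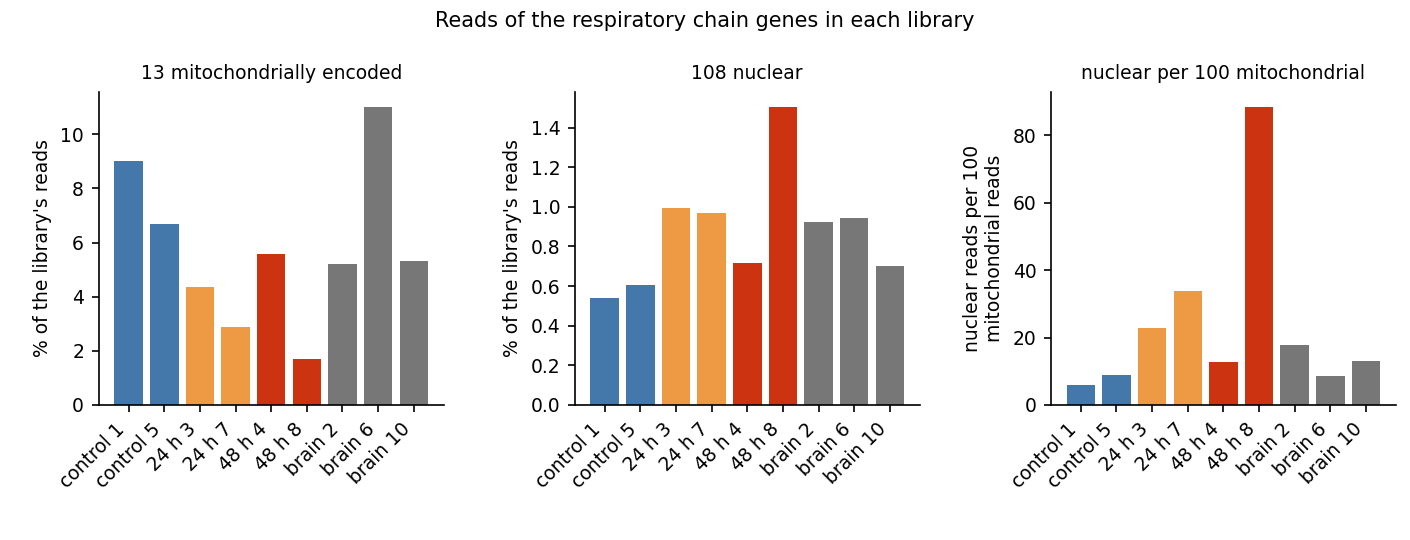
Reads of the 13 mitochondrially encoded genes (left) and of the 108 nuclear members (middle) as a percentage of each library's reads, and nuclear reads per 100 mitochondrial reads (right). Bars are single libraries, coloured by group; the 4 activated libraries lie below both controls on the left and above them in the middle, and 48 h sample 8 reaches 88.42 on the right.

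The mitochondrially encoded genes were compared first between activated microglia (24 h and 48 h pooled, n = 4, as the series states) and control microglia (n = 2). The comparison sets microglia of fish given MTZ against those of fish given DMSO. Every group carried the NTR transgene, so effects of the drug itself and of the loss of neurons cannot be told apart. All 13 genes had a lower mean in activated microglia, with a median log2 fold change of -0.91, while the median of all 21714 genes tested was 0.01. None passed the test: limma with Benjamini-Hochberg adjustment over all genes called 0 of the 13 higher and 0 lower, against 0.834% of all genes called higher and 0.47% lower. At an unadjusted p under 0.05, 5 were lower and 0 higher (background 9.33% lower and 11.2% higher). limma-voom on the recovered reads also called 0 of the 13, and its share of all genes is not given. In 10 of 13 genes (76.9%) every activated library was below both controls, which held for 15.5% of all genes.

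The complex IV genes mt-co1, mt-co2 and mt-co3 encode the catalytic core of cytochrome c oxidase. mt-co1 stood at 40118 and 31991 in the controls, 19860 and 10710 at 24 h, and 29256 and 9937 at 48 h. mt-co2 stood at 21189 and 14698 in the controls, 7731 and 6021 at 24 h, and 10126 and 2226 at 48 h. mt-co3 stood at 13749 and 8416, then 5091 and 3044, then 7158 and 2508. In each of the 3 genes the activated libraries lay below both controls, with 48 h sample 4 the closest to them. The log2 fold changes were -1.18 ± 1.16 (SE) for mt-co1, -1.63 ± 0.87 for mt-co2 and -1.40 ± 0.69 for mt-co3 (limma, Benjamini-Hochberg adjusted p = 0.600, 0.349 and 0.317). For mt-co2, 48 h sample 8 differed from sample 4 by -2.19 on the log2 scale, a distance larger than the fold change itself.

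mt-cyb, the cytochrome b of complex III, was at 9466 and 7202 in the controls, 4239 and 3362 at 24 h, and 6576 and 5473 at 48 h. All 4 activated values were below the controls, and the fold change was -0.79 ± 0.58 (limma adjusted p = 0.487). Among the 7 complex I genes, mt-nd3 was at 179.5 and 102.2 in the controls, 63.5 and 50.4 at 24 h, 59.1 and 74.4 at 48 h. Its groups did not overlap, and its fold change of -1.13 ± 0.28 missed the threshold (limma adjusted p = 0.104, and 0.050 to 0.611 over the alternatives). mt-nd4, mt-nd4l, mt-nd5 and mt-nd6 also lay below both controls in all 4 activated libraries, at -0.99 ± 0.38, -1.16 ± 0.40, -0.86 ± 0.32 and -0.91 ± 0.27. mt-nd4 went from 4170 and 2828 in the controls to 1774 and 1594 at 24 h and 2223 and 1436 at 48 h, and mt-nd6 from 417 and 279.1 to 215.1 and 162.9 and then 213.7 and 145.1. In mt-nd1 and mt-nd2 the groups overlapped. mt-nd1 was at 666.5 and 460.8 in the controls, 409.1 and 276.9 at 24 h and 269.1 and 530.3 at 48 h, and mt-nd2 was at 1031 and 717.1, then 752 and 609.7, then 635.5 and 318.3. Their fold changes were -0.63 ± 0.36 and -0.64 ± 0.41.

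Of the ATP synthase subunits, mt-atp6 had the smallest fold change of the 13. It was at 3336 and 2403.0 in the controls, 2402.7 and 2297 at 24 h, and 2082 and 1374 at 48 h, so the highest activated value lay only just under the lower control (fold change -0.51 ± 0.41). mt-atp8 was at 175.8 and 100.7, then 108.2 and 89.2, then 81.3 and 57.8, and its groups overlapped (-0.69 ± 0.33). The reading frames of mt-atp8 and mt-atp6, and of mt-nd4l and mt-nd4, overlap on the vertebrate mitochondrial genome, so reads in the shared stretch cannot be told apart. mt-nd6 lies on the other strand from the remaining 12, and the kit named in the labels does not mark strand, so its reads cannot be told apart from antisense reads of the other strand's precursor.

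The make-up of the mt- reads also varied between libraries. mt-co1 to mt-co3 together made up 78.3% and 78.4% of mt- reads in the controls, 75.3% and 68.5% after 24 h, 78.3% and 59.8% after 48 h, and 67.7% to 71.6% for other brain cells. mt-atp6 made up 3.48% and 3.42% in the controls, 5.53% and 7.96% after 24 h, 3.5% and 5.61% after 48 h, and 5.69% to 7.5% for other brain cells. In both shares 48 h sample 4 was the activated library closest to the controls. Sample 8 differed most for mt-cyb, which was 22.3% of its mt- reads against 9.76% to 12.3% in the other 8 libraries, and for mt-co2, at 9.08% against 17% to 25.1%.

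**Figure D2:**
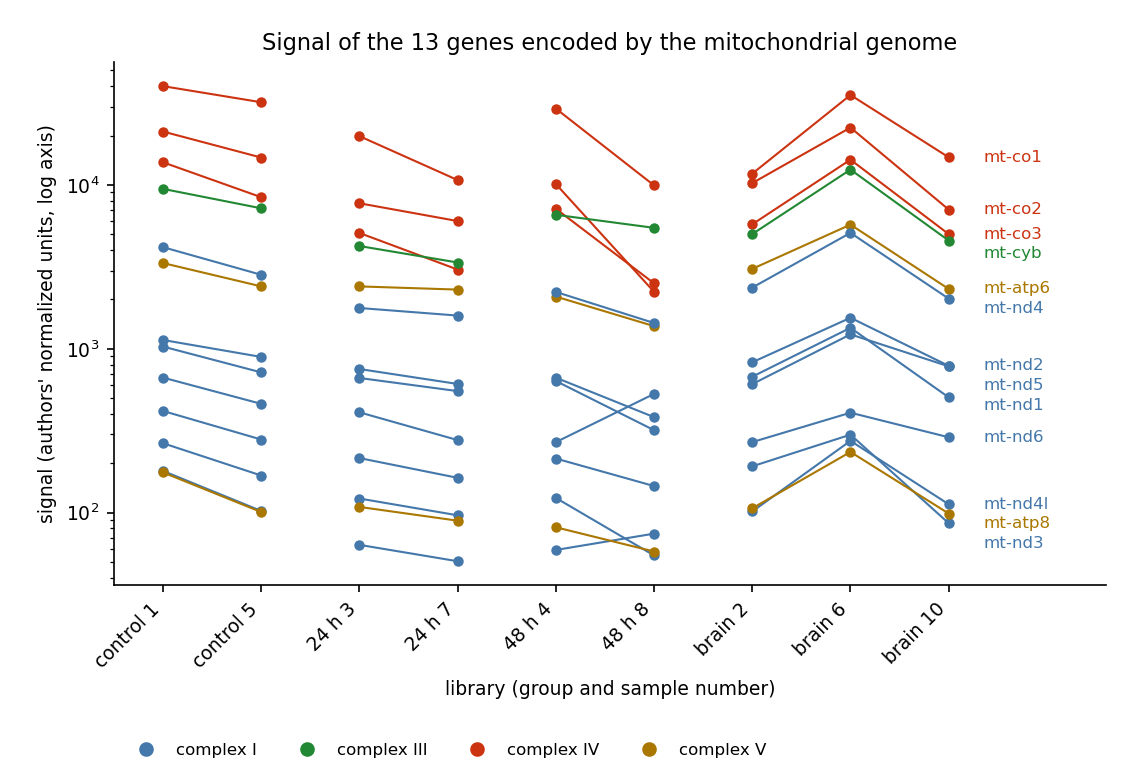
Signal of each mitochondrially encoded gene (log axis) in each of the 9 libraries, coloured by complex, with lines joining libraries of the same group. The mt-co genes of all 4 activated libraries lie below both controls, and mt-co2 is lowest in 48 h sample 8, at 2226.

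Summed markers of oligodendrocytes and erythrocytes, like those of neurons above, were also lower in every activated library than in both controls. Within the activated libraries the order differed. 48 h sample 4 had the highest mt- share of them (5.577%) and the lowest sums of oligodendrocyte, erythrocyte and neuron markers (247.3, 5.357 and 58.38). The sums for endothelium, muscle and radial glia, given below, did not lie below both controls in every activated library. Oligodendrocyte markers (6 genes) summed to 1986 and 1002 in the controls and 247 to 606 in activated microglia, against 22820 to 43700 in other brain cells. The 3 erythrocyte markers found summed to 240.3 and 41.3 in the controls and 5.36 to 15.1 in activated microglia, and slc4a1a, the anion exchanger of red cells, was lower in activated microglia (-1.24 ± 0.17, limma adjusted p = 0.0447). Their part in the lower mt- signal was not tested.

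With the 4 activated libraries pooled, the nuclear members were shifted to higher values than in the controls, with the highest median in the core subunits. In 48 h sample 4 alone the median nuclear member lay at -0.09 from the control mean, and the median core subunit at 0.81. Of 108, 85 had a higher mean and the median log2 fold change was 0.54, against 0.01 for all genes tested. limma called 1 higher and 0 lower (background 0.834% and 0.47%), and at an unadjusted p under 0.05, 22 were higher and 6 lower (background 11.2% and 9.33%). limma-voom called 0 in either direction, and its share of all genes is not given. All 4 activated libraries lay above both controls in 41 members (38%, against 15.9% of all genes) and below both in 9 (8.33%, against 15.5%). The 14 core subunits, those of complexes I to III that also occur in the bacterial enzymes, had a median of 1.03, the 81 other subunits 0.55 and the 13 assembly factors and related genes 0.38. By complex, the median was 0.63 for complex I, 0.31 for complex II, 1.06 for complex III, 0.09 for complex IV and 0.70 for complex V. Complex III and complex IV thus lay at the ends of this range, and no difference between complexes was tested. Without 48 h sample 8 the medians were 0.36, 0.03, 0.86, -0.07 and 0.36, so complex IV changed sign, and those of the core subunits, other subunits and assembly genes were 0.88, 0.20 and 0.07.

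In complex V, atp5b (ENSDARG00000070083), the catalytic beta subunit of the F1 head, was the member that passed the test. It stood at 223.7 and 320.2 in the controls, 879.5 and 771.9 at 24 h, and 906.5 and 861.2 after 48 h, against 241.5, 161.8 and 419.9 in other brain cells. Its 4 activated libraries were close together and above every other library, and the fold change was 1.67 ± 0.24 (limma, Benjamini-Hochberg adjusted p = 0.0452). The call rests on the choice of libraries and scaling: over 16 alternatives the fold change was 1.1 to 1.93 and the limma adjusted p 0.0307 to 0.611. The highest came where the column of control sample 9 was used as a control, with the same values then in both groups. Without control sample 1 or 5, 24 h sample 3 or 7, or 48 h sample 4 the adjusted p was 0.067 to 0.189, and without 48 h sample 8 it was 0.0348.

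atp5a1, the alpha subunit that alternates with beta in the F1 head, was at 69 and 110.3 in the controls, 410.6 and 354.3 at 24 h, and 318.2 and 165.8 at 48 h. Its groups did not overlap, although 48 h sample 8 was the lowest of the activated libraries, and its fold change was 1.75 ± 0.42 (limma adjusted p = 0.0945). atp5c1, the gamma subunit that turns inside the head, was at 131.9 and 147.3 in the controls, 318.3 and 344.4 at 24 h, and 290.9 and 1369 at 48 h. Sample 8 was here far above its partner, the opposite of atp5a1, and the fold change of atp5c1 was 1.71 ± 0.67 (limma adjusted p = 0.226). The 3 genes for the c subunit of the membrane ring, which share a nearly identical mature protein in mammals, were atp5g1 at 1.46 ± 0.42, atp5g3a at 1.05 ± 0.42 and atp5g3b at 0.46 ± 0.42. Per 100 units of atp5g3b, atp5g1 stood at 33.3 and 36.9 in the controls and 62.3 to 78.9 in activated microglia. The small subunits atp5e, atp5ia, atp5ib and atp5l had fold changes of 0.15 to 0.46, and in each of them 48 h sample 4 lay below both controls and sample 8 above every other library.

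In complex I, ndufs1, the largest subunit of the NADH-oxidizing arm and a carrier of iron-sulfur clusters, had the largest fold change. It was at 25.3 and 43.5 in the controls, 100.8 and 128 at 24 h, and 119.8 and 82.6 at 48 h. All 4 activated values were above both controls, and the fold change was 1.65 ± 0.29 (limma adjusted p = 0.0601). ndufv1, which binds NADH, went from 58.6 and 56.7 to 114.1 and 143.8 at 24 h and 114.1 and 213.2 at 48 h (1.28 ± 0.30, limma adjusted p = 0.0889). ndufv2, its iron-sulfur partner, went from 17.8 and 24.4 to 42.6 and 43.1, then 37.5 and 71.2 (1.14 ± 0.31).

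Of the other core subunits of complex I, ndufs3 and ndufs7, both part of the arm that leads to quinone, lay above both controls in each activated library, with fold changes of 1.27 ± 0.48 and 0.62 ± 0.43. ndufs3 was at 43.8 and 57 in the controls, 87.5 and 103.2 at 24 h, and 93.3 and 261.5 at 48 h. ndufs8a, another iron-sulfur subunit, differed from the rest: 62.6 and 60.5 in the controls, 94.7 and 77.7 at 24 h, 85.3 in 48 h sample 4 and 18.1 in 48 h sample 8. Its fold change was -0.08 ± 0.69 with sample 8 and 0.47 without it, and neither passed the test. The 31 other subunits of complex I had a median of 0.64, from -0.31 for ndufa12, at 0.925 to 2.39 in all 9 libraries, to 1.35 ± 0.40 for ndufa9a (19.8 and 31.7 in the controls, 47, 61.9, 56 and 112.2 in activated microglia). ndufa10 (1.25 ± 0.40) and ndufb9 (1.20 ± 0.52) were also above both controls in each activated library. The 8 assembly genes of complex I had a median of 0.41, and ndufaf7, at 1.61 and 3.27 in the controls and 4.91 to 7.36 in 3 activated libraries, had 0 reads in 48 h sample 8.

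Complex II has 4 subunits, and its gene for the iron-sulfur subunit, sdhb, had the largest fold change of all 121 members. sdhb was at 27.7 and 52.7 in the controls, 125.8 and 116.1 at 24 h, 115.6 and 233.5 at 48 h. Its values for other brain cells were 47.5, 19.9 and 69.1. The activated libraries lay above all 5 others, and the fold change was 1.85 ± 0.40 (limma adjusted p = 0.0791). The flavoprotein gene sdha was at 97.3 and 134.3 in the controls, 207.6 and 217.8 at 24 h, and 217.3 and 146.5 at 48 h (0.76 ± 0.25, limma adjusted p = 0.166). 48 h sample 8 was the activated library nearest to the controls. The membrane anchors sdhc and sdhdb had fold changes of 0.31 ± 0.45 and 0.89 ± 0.59, and sdhc overlapped between the groups.

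In complex III, 5 of 9 genes lay above both controls in each activated library (15.9% of all genes did), and none of the 9 passed the test. uqcrc1, a core protein, was at 111.6 and 128.4 in the controls, 256 and 257.5 at 24 h, and 228.2 and 408.1 at 48 h (1.22 ± 0.28, limma adjusted p = 0.0857). uqcrc2a and uqcrc2b, the paralogous genes of the other core protein, had fold changes of 1.35 ± 0.31 and 1.28 ± 0.27, cyc1, cytochrome c1, 1.26 ± 0.25, and uqcrfs1, the Rieske iron-sulfur protein, 1.06 ± 0.31. cyc1 was at 67.1 and 86.5 in the controls, 183.7 and 199.2 at 24 h, and 137.5 and 225.9 at 48 h, with no overlap. The 4 small subunits uqcrh, uqcrq, uqcrb and UQCR10 had fold changes of -0.29 to 0.52, and each was lower in 48 h sample 4 than in both controls.

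Complex IV had fold changes of both signs. Its 25 nuclear genes had a median fold change of 0.09, with 14 positive and 11 negative. In all activated libraries 5 lay above and 7 below both controls, which held for 15.9% and 15.5% of all genes. cox4i1, the main form of subunit IV, was at 158.9 and 199.5 in the controls, 179.5 and 169.2 at 24 h, and 111.2 and 285.3 at 48 h, so the activated range enclosed the controls (-0.01 ± 0.38). cox5aa behaved alike, at 137 and 153.8, then 148.8 and 158.3, then 94.4 and 259 (0.09 ± 0.39), and its paralogue cox5ab had 0.75 ± 0.26, from 33.3 and 38.3 to between 43.2 and 74.6. The signs of cox4i1 and cox5aa changed between alternatives. cox6a1 was higher in each activated library (84.3 and 110.6 against 160.6 to 228.5, 0.94 ± 0.22, limma adjusted p = 0.0922).

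The isoform genes cox7a1, cox6a2 and cox4i2 of complex IV had the largest negative fold changes of the nuclear members. cox7a1, the heart and muscle form of subunit VIIa in mammals, was at 9.49 and 9.81 in the controls, 1.39 and 2.45 at 24 h, and 1.82 and 5.23 at 48 h (-1.62 ± 0.45, limma adjusted p = 0.126). cox6a2, a form of subunit VIa that the later annotation names COX6A1, was at 4.09 and 5.09, then 0.998 and 1.63, then 0.566 and 1.6 (-1.37 ± 0.30, limma adjusted p = 0.0794). cox4i2 was at 7.02 and 5.40, then 2.08 and 3.15, then 1.71 and 2.10 (-1.15 ± 0.30). In all 3 genes the controls lay above every activated library. The 4 muscle markers found summed to 55.9 and 14.4 in the controls and 5.81 to 63.1 in activated microglia, with the highest value in 48 h sample 8, and their part in these differences was not tested.

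Of the genes for subunit Vb, COX5B (1 of 3) and COX5B (2 of 3) had fold changes of opposite sign. COX5B (1 of 3) was at 205.3 and 215.9 in the controls, 119.5 and 125.9 at 24 h, and 112.2 and 119.8 at 48 h. COX5B (2 of 3) was at 183.2 and 188.8 in the controls, 303.6 and 330.6 at 24 h, and 253.9 and 943.9 at 48 h. Neither set of values overlapped between the groups. The fold changes were -0.81 ± 0.15 (limma adjusted p = 0.0661) and 1.08 ± 0.55 (limma adjusted p = 0.330). Per 100 units of the first gene the second stood at 89.2 and 87.5 in the controls, 226 to 788 in activated microglia, and 61.3 to 105 in other brain cells. How the authors' counting treated reads that fit several paralogues is not given in the sources used here, so such splits are uncertain where the sequences are near identical.

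The 3 endothelial markers found did not move together. They summed to 6.7 and 17.1 in the controls, 35.9 to 60.2 in activated microglia and 6.08 to 8.46 in other brain cells, and fli1a, an endothelial and blood cell transcription factor, was called higher (2.07 ± 0.32, limma adjusted p = 0.0492). tie1, an endothelial receptor, made up most of the sum, at 4.4 and 12.9 in the controls and 25.5 to 53.2 in activated microglia. cdh5, the defining endothelial cadherin, was at 1.31 and 2.66 in the controls, 0.456 and 0.691 at 24 h, and 0 reads in both 48 h libraries. The 6 markers of radial glia and astrocytes summed to 3814 and 4817 in the controls and 3106 to 27230 in activated microglia, almost all of it glula, a gene of glutamine synthesis. The other 5 had negative fold changes and the median of the 6 was -0.87, with 0 called and 1 lower at an unadjusted p under 0.05 (background 9.33%). Their part in the nuclear values was not tested.

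**Figure D3:**
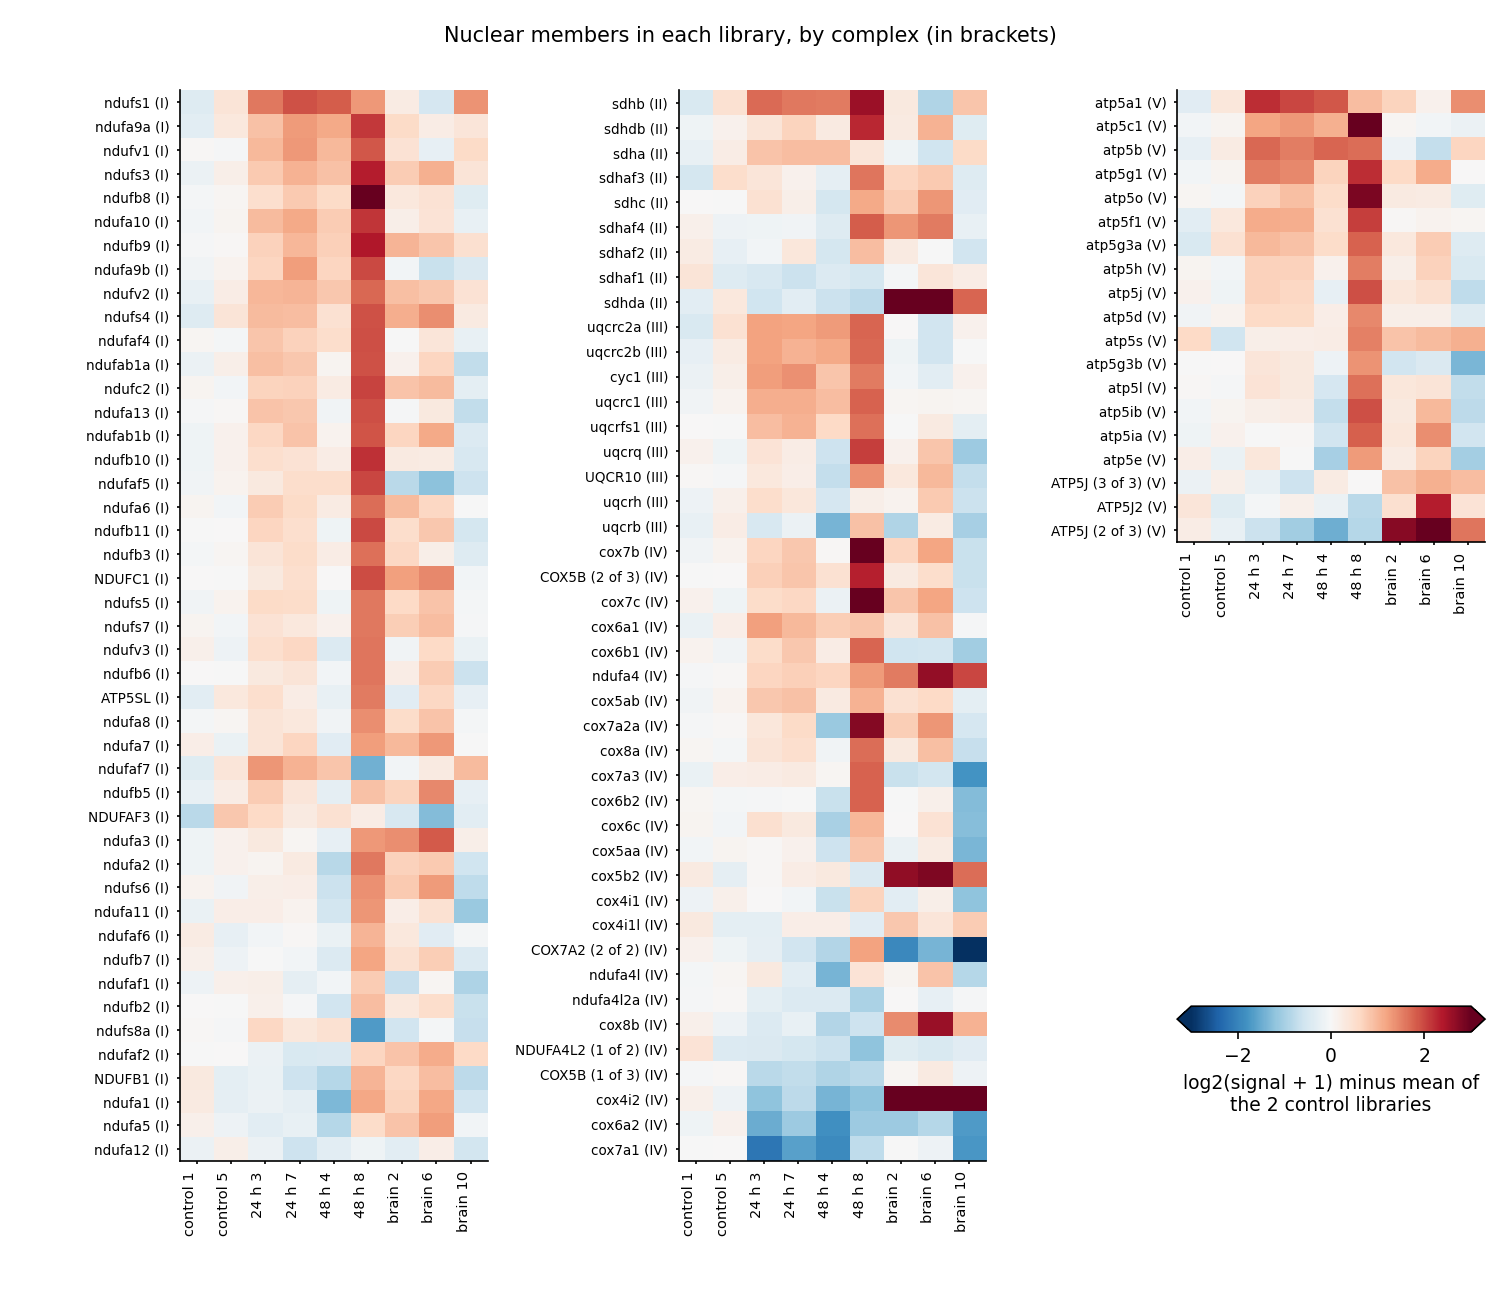
Nuclear members (rows, with the complex in brackets) in each library (columns) as log2(signal + 1) minus the mean of the 2 control libraries, sorted within a complex by the mean of the activated libraries; red is higher and blue lower. The column of 48 h sample 8 is red in most rows, 75 of 108 being more than 2-fold above 48 h sample 4 on this scale. At the foot of complex IV, cox4i2, cox6a2 and cox7a1 are blue in all 4 activated libraries.

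Leaving out 48 h sample 8 lowered the spread and raised the number of calls. With 3 activated libraries limma called 11 nuclear members higher and 2 lower, against 4.8% and 2.33% of all genes, and the median over the 108 was 0.25. The 11 were atp5a1 (2.03 ± 0.25), ndufs1 (1.77 ± 0.27), atp5b (1.66 ± 0.21), sdhb (1.61 ± 0.29), atp5c1 (1.18 ± 0.14), uqcrc2b (1.13 ± 0.18), ndufv1 (1.08 ± 0.15), uqcrc1 (1.04 ± 0.13), ndufa10 (0.95 ± 0.16), ndufs3 (0.91 ± 0.17) and ndufb9 (0.80 ± 0.15). The 2 lower were cox7a1 (-1.90 ± 0.27) and COX5B (1 of 3) (-0.82 ± 0.12). No mt- gene was called. Without sample 8 the fold changes of some other named members were smaller in size, among them ndufs7 (0.29), sdhdb (0.43) and COX5B (2 of 3) (0.66). The same held for atp5g3b (0.17), mt-nd2 (-0.37) and mt-atp6 (-0.33). Fold changes of others were larger in size, among them sdha (0.90), mt-nd3 (-1.22) and mt-cyb (-0.86). Those of uqcrq (0.01) and sdhc (0.03) were near 0, and those of UQCR10 (-0.07), atp5e (-0.22), atp5ia (-0.19) and atp5ib (-0.10) turned negative. Leaving out any other activated library left 0 nuclear members called. Using the column of control sample 9 as a control also left 0, but there the same values stand in both groups.

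**Figure D4:**
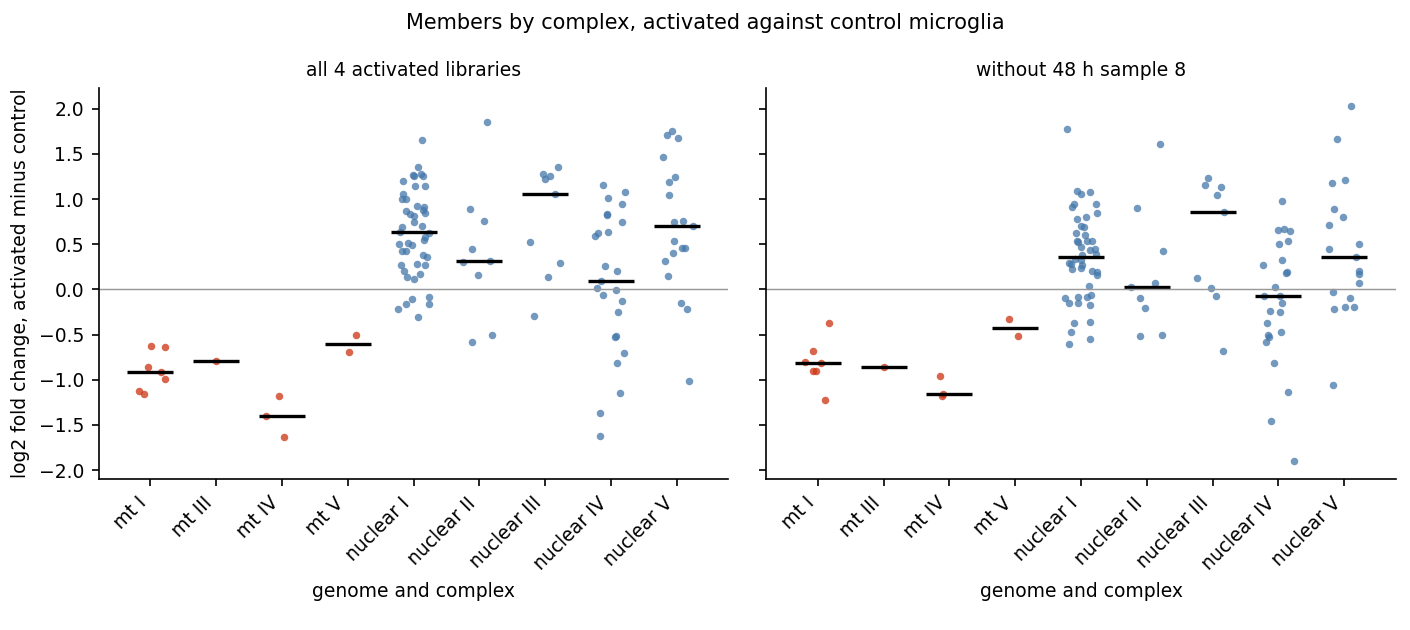
Log2 fold change of each member between activated and control microglia, by genome and complex, with all 4 activated libraries (left) and without 48 h sample 8 (right); points are genes and black bars medians. The mitochondrially encoded genes (red) lie below 0 in both panels, and the median of the nuclear members (blue) falls from 0.54 to 0.25.

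The authors' deposited table gives the same pooled comparison from their own fit, and it does not name the libraries used. At an FDR under 0.05 the authors' deposited table has 11 nuclear members higher and 1 lower (2.39% and 3.31% of all genes) and none of the 13 mt- genes in either direction, with medians of 0.59 and -0.61. Its higher members are atp5a1 (1.70), atp5c1 (1.54), atp5b (1.43), ndufs1 (1.42), atp5g1 (1.41), ndufa9a (1.25), uqcrc2b (1.22), ndufv1 (1.20), uqcrc2a (1.17), ndufa10 (1.16) and cox6a1 (1.05). The lower member is sdhda (-2.83), a gene near the floor in microglia. It was at 0.687 and 1.59 in the controls and 0.223 (0 reads) to 0.691 in activated microglia. The authors' values come from the same samples and are no independent evidence.

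At the single time points no member passed the test, with 2 libraries a group. After 24 h the nuclear median was 0.44 and the mt- median -0.96, with all 13 mt- genes negative. limma called 0 members in either direction (background 0.00461% of all genes), and at an unadjusted p under 0.05 it had 15 nuclear members higher and 4 lower (background 9.18% and 6.52%) and 1 mt- gene lower. The largest nuclear fold changes were 2.12 ± 0.41 for atp5a1, -1.89 ± 0.52 for cox7a1 and 1.75 ± 0.36 for ndufs1 (limma adjusted p = 0.186, 0.225 and 0.188). After 48 h the medians were 0.69 and -0.95, again with all 13 mt- genes negative and 0 calls (background 0%). At an unadjusted p under 0.05, 20 nuclear members were higher and 6 lower (background 10.0% and 8.23%) and 5 mt- genes lower, and the largest nuclear fold changes were 2.17 ± 0.73 for atp5c1, 2.07 ± 0.46 for sdhb and 1.85 ± 0.83 for ndufb8. The nuclear median at 48 h was -0.09 without sample 8 and 1.56 without sample 4, so each of the 2 libraries decides it. At 48 h the authors' deposited table lists 13 nuclear members as higher and 0 lower (2.4% and 1.77% of all genes), led by atp5c1 (2.21), ndufb8 (2.06) and atp5o (1.84), genes in which 48 h sample 8 lay far above sample 4 (atp5o at 1328 against 274.2, ndufb8 at 734.7 against 124.5).

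Between 48 h and 24 h neither set was called, with 0 members at an adjusted and 0 at an unadjusted p under 0.05 (background 0% adjusted, 1.89% higher and 2.25% lower unadjusted), and limma-voom also called 0. The nuclear median was 0.25, but -0.06 with equal totals, where the median of all genes moved from -0.04 to -0.24. It was -0.41 without 48 h sample 8 and 1.03 without sample 4. The largest positive fold changes were 1.20 ± 0.83 for ndufb8, 0.93 ± 0.73 for atp5c1 and 0.90 ± 0.75 for atp5o, and the most negative among genes with reads in all 4 libraries was -1.09 ± 0.71 for ndufs8a. The mt- median was -0.09, and it was -0.39 with equal totals, 0.18 without sample 8 and -0.65 without sample 4. With these 4 libraries no change from 24 h to 48 h was detectable in either genome.

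Against other brain cells, a mixture of neurons, glia and other GFP-negative cells, control microglia (n = 2 against 3) had a lower signal of isoform genes such as cox4i2 and sdhda and a higher signal of COX7A2 (2 of 2). limma called 1 nuclear member higher and 6 lower (background 15.1% and 20.2% of all genes), and 0 of the 13 mt- genes in either direction, 0 of them at an unadjusted p under 0.05 as well, and 0 with limma-voom. The nuclear median was -0.14, equal to that of all genes, and the mt- median was 0.24, which became -0.15, -0.14 and -0.55 when libraries were scaled to the same total, to the same total over nuclear genes, or quantile normalized. The median of all genes became -0.47, -0.46 and 0.06. Relative to all genes the mt- median was 0.39 as deposited, 0.32 and 0.33 with equal totals, and -0.6 with quantile normalization alone below 0. Without other brain cell sample 10 the lower count was 21 (19.4% of all genes). Leaving out control sample 1 or 5 leaves 1 control library, so counts from those fits are not given for this comparison. In sample 10 cox7b was at 118.2 against 293.4 and 427.5 in samples 2 and 6, and ndufs1 at 86.6 against 39.4 and 23.3, so sample 10 was the lowest library of its group in the first and the highest in the second.

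Each of the 6 lower genes has a paralogue among the members. cox4i2 (ENSDARG00000022509), whose mammalian counterpart is a form of subunit IV induced by low oxygen, stood at 139.5, 128.3 and 56.8 in other brain cells and 7.02 and 5.40 in control microglia (-3.83 ± 0.44, limma adjusted p = 0.000382). Per 100 units of cox4i1 it stood at 97, 64.2 and 74.1 in other brain cells, 4.42 and 2.71 in the controls and 0.737 to 1.86 in activated microglia. sdhda, an anchor of complex II, was at 15.7, 19.7 and 5.98 in other brain cells and 0.687 and 1.59 in the controls (-2.68 ± 0.56). Its paralogue sdhdb was at 68, 116.2 and 43.5 in other brain cells and 50.9 and 61.4 in the controls, where the groups overlapped. ATP5J (2 of 3), a form of coupling factor 6, was at 52.6, 77.7 and 23.7 in other brain cells against 8.41 and 6.01 (-2.53 ± 0.50), while atp5j was at 84.9, 93.8 and 38.8 against 72.8 and 61.6. cox5b2 (-2.38 ± 0.50) and cox8b (-1.69 ± 0.51) followed, and the cox8b call was lost in 7 of 15 alternatives (limma adjusted p up to 0.207), limma-voom among them. cox8b stood at 50.5 to 77.5 per 100 units of cox8a in other brain cells and 18.9 and 22.8 in the controls. ndufa4 was at 56.9, 121.7 and 77.4 against 18.3 and 19.1 (-2.06 ± 0.38). The calls of sdhda, ATP5J (2 of 3), cox5b2 and ndufa4 were lost when control sample 1 or 5 was left out, which leaves 1 control library. Their fold changes stayed negative over the 15 alternatives.

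The gene higher in microglia was COX7A2 (2 of 2), a form of subunit VIIa. It was at 89.1 and 73.3 in control microglia and 20.52, 29.9 and 5.26 in other brain cells (2.35 ± 0.62, limma adjusted p = 0.0183). Per 100 units of its paralogue cox7a2a it stood at 191 and 149 in the controls, 57.5 to 201 in activated microglia and 25.3, 24.5 and 15.7 in other brain cells. The values of microglia and of other brain cells did not overlap in this ratio, and control and activated microglia did. The call was lost under quantile normalization and without either control library.

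**Figure D5:**
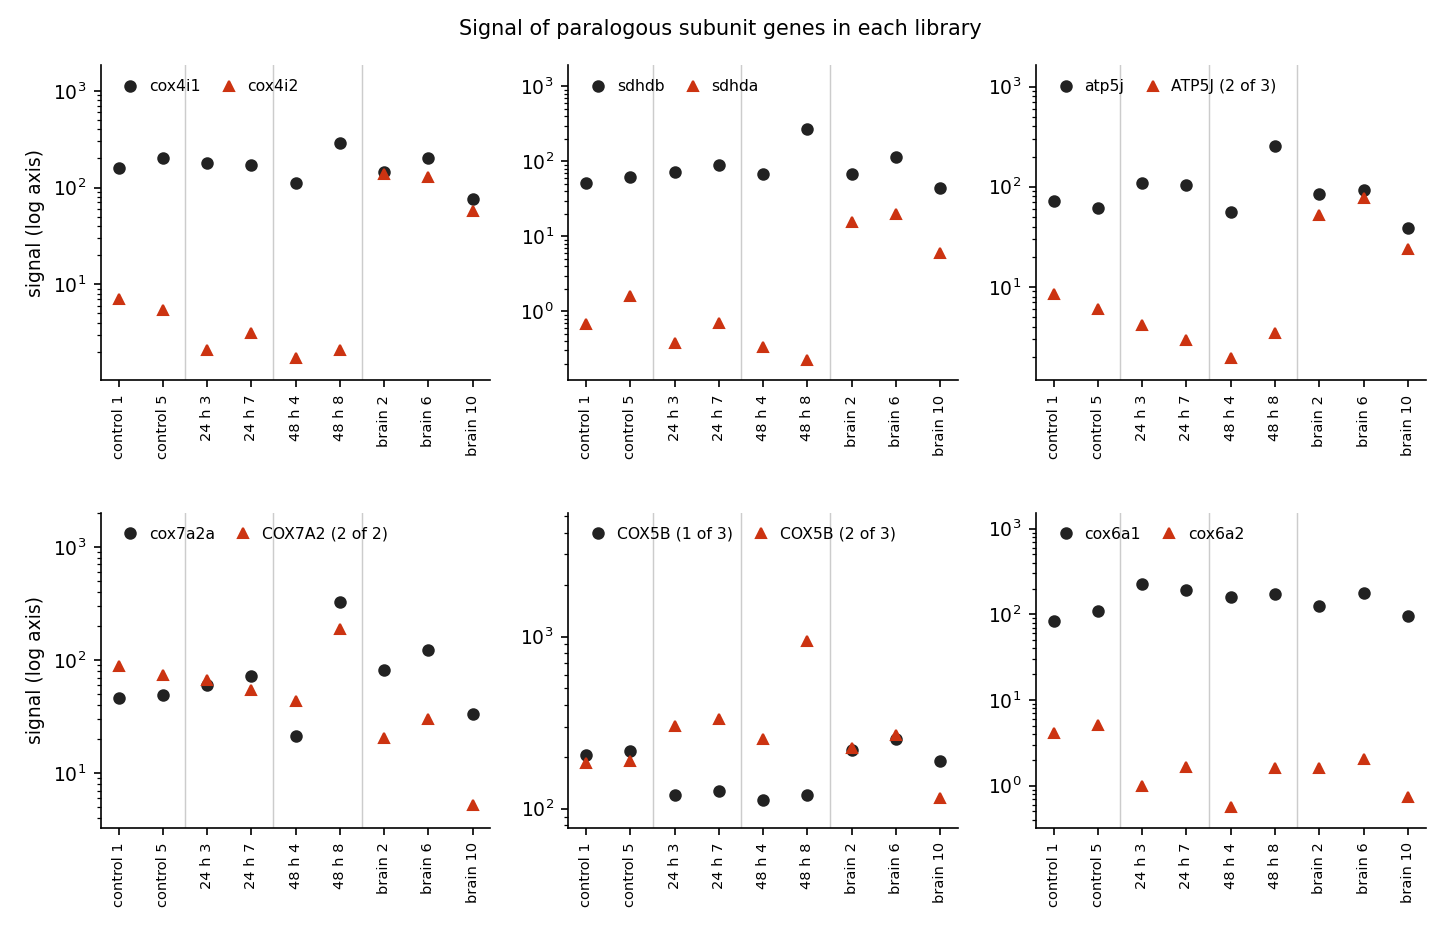
Signal (log axis) of 6 pairs of paralogous subunit genes in each library; vertical lines separate control, 24 h, 48 h and other brain cell libraries. cox4i2, sdhda and ATP5J (2 of 3) lie lower in all 6 microglia libraries than in the 3 other brain cell libraries, COX7A2 (2 of 2) lies higher in all 6 microglia libraries than in other brain cells, and COX5B (1 of 3) is lower and COX5B (2 of 3) higher in each activated library than in both controls.

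Activated microglia (n = 4) differed from other brain cells in 21 higher and 11 lower nuclear and 3 lower mt- members. limma called 21 nuclear members higher and 11 lower (background 22.9% and 27.6% of all genes). With equal totals 13 were higher and 15 lower, and the median of all genes moved from -0.05 to -0.42. The share of all genes called with equal totals is not given. With the values as deposited, both shares, 21 and 11 of 108, lay below the background. The 10 largest higher differences were COX7A2 (2 of 2) at 2.22 ± 0.62, atp5c1 and sdhb at 1.78, atp5b at 1.74 ± 0.35, the complex I assembly gene ndufaf5 at 1.71, cox7a3, which the later annotation names COX7A2L, at 1.59, cox6b1 at 1.57 ± 0.37, ndufa9b at 1.53, and uqcrc2b at 1.51 ± 0.28 and uqcrc2a at 1.5 ± 0.28. All 5 genes for the large subunits of complex III, uqcrc1, the paralogues uqcrc2a and uqcrc2b, cyc1 and uqcrfs1, were called higher. The uqcrc1 call was lost in 2 of 17 alternatives, equal totals over nuclear genes and quantile normalization. uqcrc2b was at 178.8, 160.6, 169.3 and 257.2 in activated microglia and 70.6, 51.7 and 76.4 in other brain cells, with no overlap. Further members called higher included ndufs1, ndufv1, ndufa10 and ndufa9a of complex I, its assembly gene NDUFAF3, and atp5f1 and atp5g3b of complex V.

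The lower members were cox4i2 (-4.98 ± 0.37, limma adjusted p = 7.63e-06), ATP5J (2 of 3) (-3.54 ± 0.42), sdhda (-3.26 ± 0.40), cox5b2 (-2.35 ± 0.36), cox8b (-2.22 ± 0.41), ATP5J2 (-1.31 ± 0.48), ndufa4 (-1.24 ± 0.32), ATP5J (3 of 3) (-1.10 ± 0.31), ndufaf2 (-0.96 ± 0.36), COX5B (1 of 3) (-0.88 ± 0.24) and cox4i1l (-0.70 ± 0.26). The 6 genes lower in control microglia were among them, and the 2 comparisons share the other brain cell libraries. The calls of cox4i1l, ndufaf2 and ATP5J2 were lost in most or many alternatives, with ndufaf2 lost in 9 of 17 and ATP5J2 in 8 of 16, where its fold change ranged from -2.63 to -0.61. Of the members called higher, ndufs1, ndufv1, ndufa9a, ndufa10, NDUFAF3, uqcrfs1, atp5f1 and atp5g3b lost their calls in 5 to 8 of 17. cox4i2 was at 2.08, 3.15, 1.71 and 2.10 in activated microglia. The nuclear median was 0.43 against -0.05 for all genes, and it became -0.03 with equal totals, where the median of all genes was -0.42, and -0.28 without 48 h sample 8 and other brain cell sample 10. The sign of the nuclear median in this comparison therefore depends on scaling and on those 2 libraries. Relative to the median of all genes it was 0.47 as deposited, 0.39 with equal totals, 0.38 with equal totals over nuclear genes and -0.07 with quantile normalization.

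Of the mitochondrially encoded genes, mt-nd3 (-1.46 ± 0.40, limma adjusted p = 0.0113), mt-nd1 (-1.11 ± 0.41, limma adjusted p = 0.0453) and mt-nd6 (-0.80 ± 0.29, limma adjusted p = 0.0407) were lower in activated microglia than in other brain cells, and the background was 27.6% lower. mt-nd3 was at 191.6, 298.9 and 86.1 in other brain cells, above all 4 activated values of 50.4 to 74.4. mt-nd1 was at 675.2, 1343 and 505.2, and its lowest value lay below the 530.3 of 48 h sample 8. The other 10 had fold changes of -0.21 (mt-co1) to -1.05 (mt-co2), all negative, and did not pass the test. Other brain cell sample 6 had the highest value of its group in each of the 13 genes, and without it the mt- median moved from -0.79 to -0.39. Without sample 2, 0 of the 13 were called.

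Other nuclear genes of mitochondrial function, taken from lists by function, were also compared between activated and control microglia. Of 75 genes of the mitochondrial ribosome, which translates the 13 mt- messages, 70 had a higher mean (median 0.64) and 2 passed the test, mrpl2 (11.4 and 10.1 in the controls, 28.2 to 39.4 in activated microglia, 1.59 ± 0.22) and mrpl16 (1.59 ± 0.24). The background over all genes in this comparison was 0.834% called higher, and 11.2% higher and 9.33% lower at an unadjusted p under 0.05. Of 23 genes of pyruvate entry and the citric acid cycle 22 had a higher mean (median 1.13), and suclg1 (2.17 ± 0.32) and dlst (2.09 ± 0.25), subunits of succinyl-CoA ligase and of 2-oxoglutarate dehydrogenase, were called. suclg1 was at 45.5 and 70.4 in the controls, 237.1 and 248.2 at 24 h and 198.7 and 380.1 at 48 h. Of 20 genes of fatty acid oxidation all 20 had a higher mean (median 1.21), and 0 were called, with 13 higher at an unadjusted p under 0.05. The adjusted p of the called genes named from all the lists was 0.0361 to 0.0493 (limma), and limma-voom called 0 genes of any of these lists. The share of all genes that limma-voom called is not given, so this 0 is no result about the lists.

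Genes that handle mitochondrial DNA and RNA were mostly at positive fold changes. Of 25 genes of mitochondrial RNA processing and translation 22 had a higher mean (median 0.91), and trmt10c, a subunit of the nuclease and methyltransferase that process mitochondrial transfer RNAs, was called. It was at 1.92 and 1.75 in the controls, 18.1 and 14.0 at 24 h, and 14.4 and 13.8 at 48 h (2.50 ± 0.27). Of 14 genes of mitochondrial DNA maintenance and transcription 11 had a higher mean (median 0.54) and 0 were called, 2 at an unadjusted p. Of 17 regulators of mitochondrial gene expression the median was 0.27 and 0 were called, 3 higher and 1 lower at an unadjusted p.

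Among the rest, slc25a3b, the phosphate carrier that feeds ATP synthase, was called of 14 carriers and cytochrome c genes (175.6 and 212.6 in the controls, 433.3 to 517.6 in activated microglia, 1.29 ± 0.19). Of 19 genes of mitochondrial dynamics and mitophagy, immt, which shapes the inner membrane (1.78 ± 0.28), and dnm1l, the fission dynamin, were called, and the median was 0.15. dnm1l was at 20.3 and 21.2 in the controls, 58.3 and 67.1 at 24 h, and 63.7 and 67.9 at 48 h (1.58 ± 0.16). The lists of 35 assembly factors outside the prefixes and of 22 import genes had 0 called (7 and 3 higher at an unadjusted p, 0 lower), with medians of 0.63 and 0.47. Without 48 h sample 8 the median fell to 0.37 for the ribosome, 0.29 for assembly factors, 0.29 for import and 0.29 for carriers, rose to 0.56 for regulators, and was 1.12 for the citric acid cycle and 0.98 for fatty acid oxidation. In that setting, where 4.8% of all genes were called higher and 2.33% lower, the higher calls were 9 for the citric acid cycle, 8 for fatty acid oxidation, 5 for RNA processing, 4 for carriers, 3 each for the ribosome and for dynamics, 2 for regulators, and 1 each for the other 3 lists, with 0 lower in any of them. Against other brain cells, limma called 25 of 75 ribosome genes and 14 of 23 citric acid cycle genes higher in activated microglia. It also called 14 of 20 fatty acid oxidation genes and 13 of 25 RNA processing genes higher, and 2 citric acid cycle genes lower (background 22.9% higher and 27.6% lower). Among the higher genes suclg2 had a fold change of 3.22, cpt1b of 3.57 and trmt10c of 2.33. Higher calls in the other lists were 8 of 35 assembly factors, 5 of 22 import genes, 3 of 14 DNA maintenance genes and 4 of 17 regulators. There were also 6 of 14 carriers and 6 of 19 dynamics genes. Lower calls there were 1 assembly factor, 2 regulators, 6 carriers and 2 dynamics genes.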

How the data were processed

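RNA was sequenced as 50-nucleotide reads, and tools named are TopHat2 2.0.5, SAMtools 0.1.18 and edgeR (version not named), with build GRCz10, per the submitters' processing notes. The counting tool, annotation and scaling are not given in the sources used here. One deposited table lists, for each gene, a signal that the authors scaled by library. CPM alone cannot describe it, since column sums ran from 728524 to 1444667 and every value was a whole number of equal steps above the constant 0.223, which stands for 0 reads. A second table deposited by the authors holds log2 fold changes and FDR values (adjusted p-values) of the authors' own fit.

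Values were transformed as log2(value + 1), on which fold changes of low genes are understated, and fitted with limma 3.58.1 (R 4.3.3; lmFit, eBayes with trend) in the 21714 genes that reached 1 unit in 2 or more libraries. Tests were two-sided with Benjamini-Hochberg adjustment over all genes and calls at an adjusted p under 0.05. Pooled comparisons used the groups compared, and single time points shared a fit of 3 microglia groups. Values are given per library, and ± is the SE of a fold change. Alternatives were other pseudocounts, filters, scalings, fits and limma-voom, and leaving out each library. Where a count of calls under an alternative stands without a share of all genes, that share is not given, and the count has no background. The fit was tested on simulated data. Members, gene lists and tests were chosen with earlier results of these data known. Named genes are all mt- members, a fixed set of catalytic subunits, up to 10 called members in each direction per comparison or else the 3 largest, paralogues, and up to 3 called genes per list; other members named as examples were chosen after their values were seen. Python 3.11.15 with pandas 2.3.3 and numpy 2.4.6 made the tables, and matplotlib 3.10.9 the plots. No sequences are printed, and of the 121 members 116 had an entry in the name table. The values of 1 member are not reported here, and it is counted in every total.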

Additional observations from a re-analysis of the deposited data

Results flagged for a closer look

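Of 68 values tested (named members and 3 read shares), 9 passed Dixon's 95% limit for 4 values. Chance flags about 1 in 20 independent values, but these share the same 4 libraries of 24 h and 48 h. The count can therefore not be set against that rate. In each of the 9, the activated library that lay farther from the other 3 than the limit was 48 h sample 8. It was high for atp5c1 (1369 against 291 to 344 in the other 3), cox7a3 (372 against 112 to 130), ndufs3 (261 against 87.5 to 103), sdhb (234 against 116 to 126), uqcrc2a (170 against 116 to 123), ndufaf5 (94.1 against 28.3 to 33.5) and ndufa4 (46.7 against 29.7 to 31.4). It was low for sdha (146 against 208 to 218) and ndufs8a (18.1 against 77.7 to 94.7). The same library had the lowest number of genes detected of the 9 (18782) and the lowest share of mt- reads (1.703%). The cause was not tested.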

How the results depend on the processing

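Pseudocounts of 0.1 and 5, no filter, a filter at 5, equal totals, equal totals over nuclear genes, quantile normalization, 1 fit of all 9 libraries, the column of control sample 9 as a control, limma-voom on recovered reads and leaving out each library were tried, and for activated microglia against other brain cells also leaving out 48 h sample 8 and other brain cell sample 10 together, chosen after seeing the data. No paired analysis was possible because the groups share no sample numbers and the labels name no sets, litters or days. Where 1 library of a group is left, it is assumed to vary like the other groups. The cause of the changes below was not tested.

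Activated against control: nuclear members called higher numbered 3 with the filter at 5, 0 with equal totals, equal nuclear totals, 1 fit, sample 9 or limma-voom, and 0 to 11 with a library left out (lower 0 to 2). Quantile normalization called 1 mt- gene lower. cox5aa was -0.04 with equal nuclear totals, -0.13 with quantile normalization and -0.15 to 0.33 with a library left out, cox4i1 -0.25 to 0.21 and ndufs8a -0.3 to 0.47. The mt- median stayed negative, and the nuclear median positive, under every alternative run for this comparison.

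Control against other brain cells: nuclear members called higher numbered 2 with pseudocount 5, 2 in 1 fit and 4 with sample 9. Those called lower numbered 14 with equal totals and 13 with equal nuclear totals, where the median of all genes was -0.47 and -0.46. Without other brain cell sample 10 they numbered 21 (19.4% of all genes). The shares of all genes called in the other settings are not given, so those counts have no background. The mt- median was -0.15, -0.14 and -0.55 under the 3 scalings, and relative to the median of all genes it was 0.32, 0.33 and -0.6.

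Activated against other brain cells: nuclear members called higher numbered 13, 12 and 12 under the 3 scalings, and those called lower 21 without both libraries, with a median of -0.28. mt- genes called lower numbered 8, 8 and 9 under the scalings (medians -1.25, -1.31 and -1.53), and 0 to 2 with a library left out (medians -1.0 to -0.39). The median of all genes was -0.42, -0.46 and 0.13 under the scalings. The shares of all genes called in these settings are not given, so the counts of nuclear and mt- genes cannot be set against them. cox4i1l was 0.05 with quantile normalization and mt-co1 -0.54 to 0.26 with a library left out.

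With a library left out, the nuclear median ranged from -0.09 to 1.56 for 48 h against control and from -0.41 to 1.03 for 48 h against 24 h, where the mt- median ranged from -0.65 to 0.18, atp5o from -0.24 to 2.04, atp5c1 from -0.19 to 2.04 and ndufb8 from -0.08 to 2.48. Depth limits the low isoforms most: 3 reads are worth 0.216 to 0.464 units.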

Other observations

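Of 14 carriers and cytochrome c genes, limma called 4 lower and 2 higher in control microglia than in other brain cells (background 20.2% and 15.1%). slc25a5, an ADP/ATP carrier, was higher, at 3072 ± 72.2 (SD, n = 2) against 1090 ± 210 (n = 3) (1.51 ± 0.43, limma adjusted p = 0.0249). ucp1, an uncoupling protein of the inner membrane, averaged 2.14 ± 0.522 (SD, n = 2) in control and 2.59 ± 0.884 (n = 4) in activated microglia against 42.2 ± 16.6 (n = 3) in other brain cells. slc25a6, another ADP/ATP carrier, averaged 2.68 ± 1.33 and 0.809 ± 0.232 against 22.9 ± 9.12 (limma adjusted p = 0.000442 and 0.00253 for control microglia). In the opposite direction nfe2l2a, a transcription factor of the antioxidant response, averaged 376.9 ± 158 in control microglia and 424.3 ± 28.8 in activated microglia against 32.5 ± 13.4. cpt1b, which admits fatty acids to mitochondria, averaged 10.04 ± 0.329 and 22.4 ± 11.9 against 0.896 ± 0.873. pink1, a kinase of mitophagy, was at 0 reads and 0.832 in the 2 control libraries, 4.09 to 8.36 in activated microglia and averaged 12.04 ± 6.12 in other brain cells (limma adjusted p = 0.00389).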
